A study of Homo sapiens with 6 samples.

Results

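The heat shock and J-domain chaperone genes are described here in SKOV3 cells, a human epithelial ovarian cancer line, after knockdown of EIF5A2, a translation factor of the eIF5A family. Members were taken by symbol: protein-coding genes starting with HSPA, HSPB, HSPD, HSPE, HSPH, HSP90A, DNAJA, DNAJB, DNAJC, BAG or CCT and a digit, plus TCP1, HSF1 and HSF2. HSPA5, DNAJB9 and DNAJC3 were left out by the rule, as were readthrough genes with a hyphen in their name. This gave 85 genes of the 58825 in the table, of which 72 had enough counts to be tested and 13 did not. All cells were SKOV3 and were transfected transiently with a negative control siRNA (NC, 3 libraries) or an siRNA against EIF5A2 (si-EIF5A2, 3 libraries), for 48 h by the description of the series. Nothing in the labels states that the 3 libraries of a group came from separate cultures, so p-values measure the spread between these libraries, which may be technical. A single cell line was used, and whether the negative control siRNA itself moved these genes was not tested, since untransfected cells were not analysed here.

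Chaperones bind unfolded protein and help it reach or keep its fold. HSP70 proteins work in a cycle in which J-domain proteins (the DNAJ genes) deliver substrate and trigger ATP hydrolysis, and nucleotide exchange factors, such as the HSP110 proteins and several BAG proteins, reset the cycle. HSP90 acts later on kinases, receptors and other clients, the CCT ring (also called TRiC) folds actin and tubulin, and the small heat shock proteins hold unfolded protein without ATP. When unfolded protein builds up in the cytosol, the transcription factor HSF1 binds heat shock elements, which are inverted repeats of the letters GAA, and raises transcription of the inducible members. The members are not all cytosolic: by list, 9 work in mitochondria (among them HSPD1, HSPE1, HSPA9 and DNAJA3) and 8 sit in or at the endoplasmic reticulum (among them HSPA13, DNAJB11 and DNAJC10).

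Since many inducible chaperones carry heat shock elements near their start, promoters were searched in RefSeq (GRCh38.p14), from 250 bases before to 50 after the start of each gene. A total of 75 of the 85 members had a promoter in the table. The 3-unit element was searched as GAANNTTCNNGAA or TTCNNGAANNTTC, which are reverse complements of each other, so both strands were covered. It was found in 4 member promoters (5.33%) and in 172 of all 35116 promoters (0.49%). The shorter 2-unit element, GAANNTTC or TTCNNGAA, each its own reverse complement and contained in every 3-unit match, was found in 18 member promoters (24%) and in 4737 of all (13.5%). The 4 promoters with the 3-unit element belonged to HSPA8, HSPA6, DNAJA1 and DNAJB6, and are shown because the first 3 genes were higher after knockdown and the last was lower. HSPA1A, the classic inducible HSP70 gene, is shown with its 2-unit match. Sequences run 5′ to 3′ on the strand of the gene, with the matched letters in capitals. They lie at chr11:123062087-123062386 on the minus strand (HSPA8) and on the plus strand at chr1:161524290-161524589 (HSPA6), chr9:33025023-33025322 (DNAJA1), chr7:157336754-157337053 (DNAJB6) and chr6:31815293-31815592 (HSPA1A).
HSPA8: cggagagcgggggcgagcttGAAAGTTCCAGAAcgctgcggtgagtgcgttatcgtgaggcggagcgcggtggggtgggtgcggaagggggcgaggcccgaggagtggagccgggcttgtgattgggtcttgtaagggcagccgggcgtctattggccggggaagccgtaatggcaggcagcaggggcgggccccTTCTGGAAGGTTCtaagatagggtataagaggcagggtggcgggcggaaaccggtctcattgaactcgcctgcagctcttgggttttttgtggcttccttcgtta
HSPA6: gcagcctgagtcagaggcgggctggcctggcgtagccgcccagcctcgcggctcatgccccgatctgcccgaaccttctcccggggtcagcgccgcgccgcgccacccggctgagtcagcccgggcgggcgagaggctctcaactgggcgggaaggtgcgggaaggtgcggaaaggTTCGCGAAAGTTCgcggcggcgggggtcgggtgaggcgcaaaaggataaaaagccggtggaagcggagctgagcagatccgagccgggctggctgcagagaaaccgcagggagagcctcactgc
DNAJA1: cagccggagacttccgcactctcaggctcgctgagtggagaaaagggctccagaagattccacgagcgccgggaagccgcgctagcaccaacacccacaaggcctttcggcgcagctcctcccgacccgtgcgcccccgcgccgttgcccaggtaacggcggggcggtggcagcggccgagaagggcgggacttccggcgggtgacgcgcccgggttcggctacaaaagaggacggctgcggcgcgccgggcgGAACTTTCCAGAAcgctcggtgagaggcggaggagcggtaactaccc
DNAJB6: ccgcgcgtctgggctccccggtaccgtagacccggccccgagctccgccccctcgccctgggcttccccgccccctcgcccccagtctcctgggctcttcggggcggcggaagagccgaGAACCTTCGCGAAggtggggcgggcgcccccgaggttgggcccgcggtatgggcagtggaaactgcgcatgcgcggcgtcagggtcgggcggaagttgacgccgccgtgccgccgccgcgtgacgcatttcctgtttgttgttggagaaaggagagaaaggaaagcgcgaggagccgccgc
HSPA1A: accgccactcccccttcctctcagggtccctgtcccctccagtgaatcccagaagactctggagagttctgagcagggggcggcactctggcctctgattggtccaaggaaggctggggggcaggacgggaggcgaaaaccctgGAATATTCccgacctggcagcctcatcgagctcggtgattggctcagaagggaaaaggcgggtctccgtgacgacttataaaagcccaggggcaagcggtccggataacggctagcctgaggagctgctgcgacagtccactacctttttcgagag

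The first base of the 3-unit match lay 230 and 55 bases before the start in HSPA8, 74 before it in HSPA6, 131 before it in DNAJB6 and 3 after it in DNAJA1. By outcome, 3 of 20 promoters of members that were higher held the 3-unit element (15%), against 1 of 5 of members that were lower (20%), 0 of 40 of members not called and 0 of 10 of members not tested. The 2-unit element was held by 5 of 20 that were higher (25%) and 1 of 5 that were lower (20%). It was also held by 9 of 40 not called (22.5%) and 3 of 10 not tested (30%). A match is a description of letters in this window and not evidence of binding. Other promoters may hold such elements outside it, or inside it with letters that depart from the exact ones searched. Of the 14 members listed below as heat-inducible, 3 held the 3-unit element (21.4%).

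The 6 libraries held 46900204 to 74142267 estimated counts, with the 2 deepest both in NC. These are estimates by StringTie in which 1 fragment appeared to be worth about 3.735 counts, so the count totals overstate the number of fragments, and a gene at 0 allows up to 3 fragments, or 0.154 to 0.238 CPM (counts per 1000000 counts) by library. EIF5A2 itself read 27.8, 29.8 and 29.9 CPM in NC and 2.76, 4.04 and 4.27 in si-EIF5A2, a log2 fold change of -2.98. The libraries held SKOV3 markers at 1506 to 1673 CPM summed over 7 genes in NC and 956 to 1168 CPM in si-EIF5A2, with KRT7, KRT8 and PAX8 lower, and EPCAM, an epithelial marker, was low in both groups (1.56 and 1.37 CPM on average). Markers of blood, endothelial and liver cells summed to at most 2.43 CPM in any library, with PTPRC and CD3E at 0 throughout. The part that the lower keratins or the unequal depth have in the results for the chaperones was not tested.

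A gene was called changed at an adjusted p below 0.05 (edgeR quasi-likelihood, Benjamini-Hochberg over all genes tested) together with a fold change above 1.5. Of the 72 members tested, 27 (37.5%) were called, against 24.6% of the 16208 genes tested in the whole table. The 27 were 21 higher and 6 lower in si-EIF5A2, beside 11.1% of all genes called higher and 13.6% called lower. The median log2 fold change was 0.19 over the members and -0.01 over all genes. The members' CPM summed to between 12828 and 13381 in the NC libraries and between 16711 and 18748 in the si-EIF5A2 libraries. The 3 values of each group did not overlap for 44 members (31 higher and 13 lower), beside 51.2% of all genes tested. These are bulk RNA levels, so more RNA per cell cannot be told apart from more cells that express a gene.

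The members listed as known to be induced by heat were mostly higher. This list was chosen with earlier results of these data known, so its counts are a description and not an independent test. Of its 14 genes, all tested, 12 were called higher and 1 lower, and HSPB1 was not called. The share called was 92.9%, beside 24.6% of all genes tested. Their median log2 fold change was 0.91, and their summed level was 3982 to 4613 CPM in NC and 7432 to 9286 in si-EIF5A2. Much of that sum came from HSPA8, which averaged 2137 and 3730 CPM, and HSP90AA1, which averaged 751 and 2028 CPM, and the highest value came from si-EIF5A2 replicate 1, where HSPA8 was highest. The other 12 genes summed to 1356 to 1411 CPM in NC and 2292 to 2499 in si-EIF5A2. HSPA8 is abundant without stress, and apart from it 11 of 13 were called higher. The groups did not overlap for any of the 14, with 13 higher and BAG3 lower, beside no overlap in 51.2% of all genes tested. HSF1 and HSF2, which encode the factors that bind heat shock elements, were not called. With 1 library left out at a time, 10 to 11 of the 14 were called higher. The lower number came without NC replicate 2, when HSPA8 and HSPE1 missed the threshold. The methods of the study name an unadjusted p below 0.05 with a fold above 2 or below 0.5. At that threshold 5 of the 14 were called higher and 0 lower, beside 2370 of all 16208 genes called in either direction. For its heatmap the study instead used an adjusted p below 0.05 and a fold change above 1.5.

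**Figure D1:**
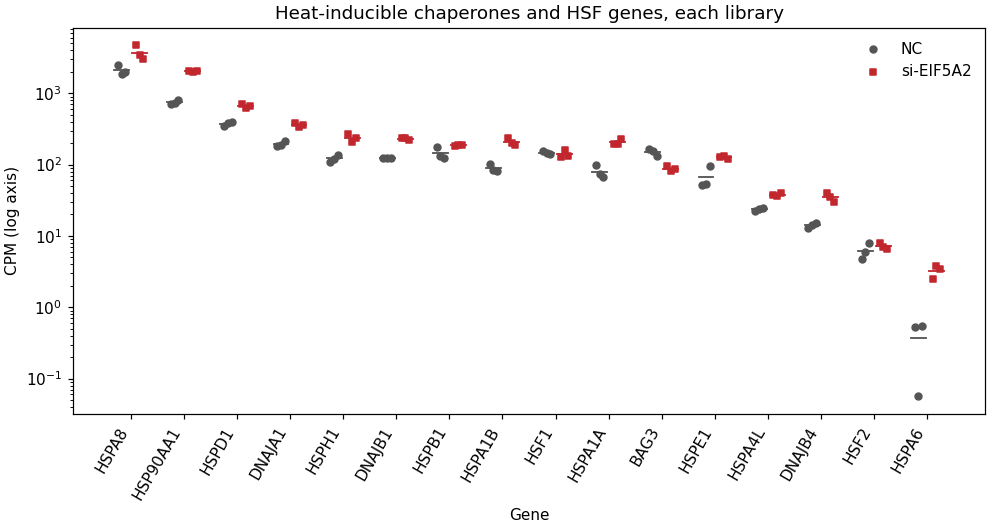
Level of the 14 heat-inducible members and of HSF1 and HSF2 in each library, in CPM on a log axis, with a point per library and a short line at the mean of each group (n = 3). The si-EIF5A2 points lie above the NC points for 13 of the 14 members, below them for BAG3, and among them for HSF1 and HSF2.

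The HSP70 family had 8 of 13 tested members higher and none lower (61.5% called, beside 24.6% of all genes tested). The family's median log2 fold change was 0.67. HSPA1A and HSPA1B (chr6:31815464-31817946 and chr6:31827735-31830255, GRCh38, plus strand) encode the stress-inducible cytosolic HSP70. HSPA1A read 98.6, 73.6 and 67.8 CPM in NC and 192, 196 and 225 in si-EIF5A2 (log2 fold change 1.35 ± 0.15 SE, adjusted p = 3.43e-04). HSPA1B read 104, 83.2 and 82.6 CPM in NC and 238, 204 and 187 in si-EIF5A2 (1.22 ± 0.12 SE, adjusted p = 1.94e-04). In both genes every si-EIF5A2 library lay above every NC library. The genes are near-identical, so the split of fragments between them is uncertain. Their sum does not depend on that split, but it does depend on how shared fragments were counted, which is not given. The sum was 170 ± 28.2 CPM in NC and 414 ± 15.0 in si-EIF5A2 (SD, n = 3), a ratio of 2.44 (2-sided exact permutation p = 0.1, the smallest that 3 against 3 allows).

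HSPA8 (chr11:123057489-123063230, minus strand) encodes HSC70, an HSP70 that is abundant without stress and was listed among those that heat can raise further. It had the highest level of the HSP70 genes per kb of exon. It read 2509, 1887 and 2014 CPM in NC and 4712, 3436 and 3041 in si-EIF5A2, a log2 fold change of 0.80 ± 0.19 SE (adjusted p = 0.0162). The si-EIF5A2 libraries were all above NC but spread widely, with replicate 1 well above the others. Without NC replicate 2 the change was 0.72 (adjusted p = 0.0538) and without NC replicate 3 it was 0.76 (adjusted p = 0.0694), so the call was lost, and over all alternatives the adjusted p ran from 2.74e-05 to 0.0694. Per kb of exon, HSPA8 went from 441 to 769 CPM per kb, against 32.2 to 82.4 for HSPA1A.

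HSPA6 (chr1:161524540-161526910, plus strand), an HSP70 gene that is nearly silent without stress, had the greatest fold change of the 72 members and is described for that reason, chosen after its values were seen. It held 38, 4 and 26 estimated counts in NC (0.521, 0.0565 and 0.553 CPM) and 128, 198 and 164 counts in si-EIF5A2 (2.5, 3.79 and 3.42 CPM). The lowest NC library thus held about the worth of 1 fragment, and the log2 fold change of 3.12 ± 0.70 SE (adjusted p = 0.012) rests on few fragments. With at least 10 counts required in every library HSPA6 was not tested.

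HSPH1 and HSPA4L, HSP110 proteins that exchange nucleotide on HSP70, were also higher. HSPH1 read 109, 121 and 136 CPM in NC and 268, 210 and 238 in si-EIF5A2 (log2 fold change 0.97 ± 0.12 SE, adjusted p = 4.43e-04). HSPA4L read 22.7, 23.7 and 25.0 CPM in NC and 38.1, 36.0 and 39.7 in si-EIF5A2 (0.67 ± 0.09 SE, adjusted p = 7.18e-04). Their relative HSPA4 was higher in every si-EIF5A2 library and past the adjusted p threshold but within the fold limit (0.41, adjusted p = 0.00814). HSPA13, an HSP70-like ATPase of the endoplasmic reticulum, read 51.1, 58.9 and 56.6 CPM in NC and 96.4, 88.5 and 80.1 in si-EIF5A2 (0.67 ± 0.10 SE, adjusted p = 0.00123). HSPA12A, an atypical and distant HSP70 relative, was higher at a low level, at 3.71 to 5.51 CPM in NC and 8.54 to 12.7 in si-EIF5A2 (1.24 ± 0.21 SE, adjusted p = 0.00246).

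HSPA9, the HSP70 of the mitochondrial matrix (mortalin), moved the other way. It read 537, 595 and 612 CPM in NC and 480, 426 and 450 in si-EIF5A2, with no overlap, but its log2 fold change of -0.36 (adjusted p = 0.00902) was within the fold limit and it was not called. HSPA1L, HSPA2 and HSPA14 overlapped between the groups, with HSPA2 under 1 CPM in every library.

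Of the 2 cytosolic HSP90 genes, HSP90AA1 was called higher and HSP90AB1 was not called. HSP90AA1 (chr14:102080738-102139699, minus strand), the inducible form HSP90α, read 705, 740 and 809 CPM in NC and 2074, 1985 and 2026 in si-EIF5A2. Its log2 fold change was 1.43 ± 0.07 SE (adjusted p = 9.00e-06), and stayed between 1.39 and 1.48 over all alternatives. HSP90AB1 (chr6:44246166-44253888, plus strand), the constitutive form HSP90β, read 2331, 2541 and 2589 CPM in NC and 2504, 2419 and 2442 in si-EIF5A2, with overlapping groups and a log2 fold change of -0.02 ± 0.07 SE (adjusted p = 0.858). Per kb of exon the pair together rose from 978 ± 55.0 to 1210 ± 23.1 CPM per kb (SD, n = 3), and the share of HSP90AA1 in it went from 14.6% ± 0.445 to 31.9% ± 0.128 (SD, n = 3; 2-sided exact permutation p = 0.1 for each, the smallest that 3 against 3 allows). HSP90AB1 remained the more abundant of the pair per length in both groups, at 835 and 824 CPM per kb, against 143 and 387 for HSP90AA1.

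**Figure D2:**
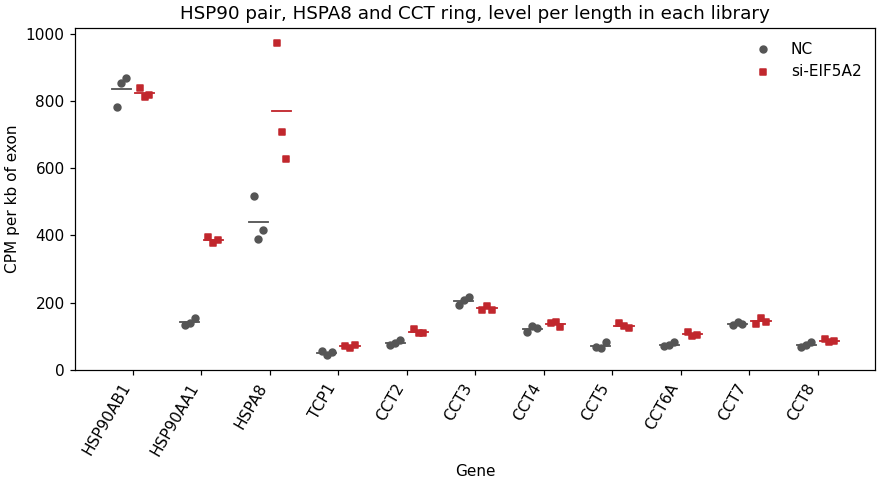
Level per length, in CPM per kb of merged exon, of the HSP90 pair, HSPA8 and the CCT subunits of the ring except CCT6B, with a point per library and a line at the group mean (n = 3). HSP90AA1 went from 143 to 387 while HSP90AB1 read 835 and 824, and among the ring genes CCT5 moved most, from 72.0 to 131.

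In mitochondria, the chaperonin HSPD1 (HSP60) and its lid HSPE1 (HSP10), which are transcribed in opposite directions from a shared region (chr2:197486581-197516737, minus, and chr2:197499994-197503457, plus), were both higher. HSPD1 read 348, 383 and 397 CPM in NC and 701, 630 and 659 in si-EIF5A2 (log2 fold change 0.82 ± 0.08 SE, adjusted p = 1.55e-04). HSPE1 read 51.1, 54.2 and 96.6 CPM in NC and 128, 133 and 121 in si-EIF5A2 (0.92 ± 0.25 SE, adjusted p = 0.0326), so NC replicate 3 stood well above the other NC libraries though below every si-EIF5A2 library. The HSPE1 call was lost when NC replicate 1, NC replicate 2 or any of the si-EIF5A2 libraries was left out, and with no filter on low counts (adjusted p 0.0730 to 0.0930). Over all alternatives its adjusted p ran from 9.70e-05 to 0.0930 and its log2 fold change from 0.76 to 1.27. The annotated exons of the genes overlap by 281 bases, and 26 HSPE1 pseudogenes held 6.1% of the gene's counts in NC and 3.1% in si-EIF5A2, so part of its level depends on how fragments were assigned. Of the 8 tested mitochondrial members, these 2 were higher, 1 was lower (DNAJA3) and 5 were not called. The share called was 37.5%, beside 24.6% of all genes tested.

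Of the 9 tested genes of the CCT family, CCT5 alone was called (11.1%, beside 24.6% of all genes tested). CCT5 (chr5:10249921-10266412, plus strand) read 404, 380 and 478 CPM in NC and 814, 754 and 722 in si-EIF5A2 (log2 fold change 0.86 ± 0.10 SE, adjusted p = 3.76e-04). TCP1, the first named subunit, read 270, 221 and 264 CPM in NC and 347, 326 and 358 in si-EIF5A2 (0.45 ± 0.09 SE, adjusted p = 0.00632), which was past the adjusted p threshold but within the fold limit. Its exons overlap those of ACAT2 on the other strand, which went from 83.5 to 178 CPM on average. CCT2 (0.48) and CCT6A (0.49) lay likewise past that threshold and within the fold limit. CCT3, CCT4, CCT7 and CCT8 had log2 fold changes between -0.17 and 0.22 and adjusted p above 0.05, and CCT6B, a form expressed mainly in testis, was under 1 CPM in every library. Per kb of exon, the ring genes other than CCT6B ranged in NC from 51.0 (TCP1) to 206 CPM per kb (CCT3).

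All 4 DNAJA genes were called, 3 higher and 1 lower, beside 24.6% of all genes tested. DNAJA1 (chr9:33025211-33039907, plus strand), an abundant cytosolic partner of HSC70, read 183, 191 and 214 CPM in NC and 381, 337 and 361 in si-EIF5A2 (log2 fold change 0.87 ± 0.09 SE, adjusted p = 1.71e-04). DNAJA2, its close relative, read 68.2, 68.8 and 71.1 CPM in NC and 126, 115 and 113 in si-EIF5A2 (0.77 ± 0.07 SE, adjusted p = 1.62e-04). DNAJA4 read 9.28, 8.98 and 7.87 CPM in NC and 21.2, 16.9 and 16.7 in si-EIF5A2 (1.07 ± 0.14 SE, adjusted p = 7.09e-04). DNAJA3 (chr16:4425805-4456775, plus strand), the mitochondrial J protein Tid1 that works with HSPA9, was lower. It read 94.4, 95.7 and 91.5 CPM in NC and 42.3, 45.2 and 40.6 in si-EIF5A2 (-1.14 ± 0.08 SE, adjusted p = 2.90e-05), with little spread in either group.

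In the DNAJB class, 3 of 9 tested genes were higher and 1 was lower (44.4% called, beside 24.6% of all genes tested). DNAJB1 (chr19:14514770-14529770, minus strand), HSP40, a main inducible partner of HSP70, read 125, 124 and 123 CPM in NC and 235, 237 and 224 in si-EIF5A2 (log2 fold change 0.90 ± 0.06 SE, adjusted p = 3.30e-05). DNAJB4, its near relative, read 12.8, 14.4 and 15.3 CPM in NC and 40.0, 35.0 and 30.4 in si-EIF5A2 (1.31 ± 0.13 SE, adjusted p = 1.79e-04). DNAJB11 (ERdj3), a partner of the HSP70 of the endoplasmic reticulum, read 154, 153 and 151 CPM in NC and 268, 232 and 259 in si-EIF5A2 (0.73 ± 0.08 SE, adjusted p = 2.20e-04). DNAJB6 (chr7:157335381-157417439, plus strand), known for holding back aggregation of polyglutamine proteins, read 196, 121 and 183 CPM in NC and 81.6, 82.7 and 66.9 in si-EIF5A2 (-1.11 ± 0.19 SE, adjusted p = 0.00397). NC replicate 2 was the lowest of its group and still above every si-EIF5A2 library. The 8 DNAJB6 pseudogenes in the table held 2.05% of the gene's counts in NC and 6.25% in si-EIF5A2. DNAJB14, of the endoplasmic reticulum, lay just within the fold limit (0.58, adjusted p = 0.00879), and DNAJB5 was uneven within NC, at 18.8, 17.9 and 5.57 CPM.

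The large DNAJC class, whose proteins share little beyond the J domain, had 3 of 23 tested genes higher, 3 lower and 17 not called, with a median log2 fold change of -0.06. The share called, 26.1%, was close to the 24.6% of all genes tested, so the count says nothing particular about the class. DNAJC9 (chr10:73183362-73248862, minus strand), a histone chaperone, read 43.5, 47.9 and 57.6 CPM in NC and 19.2, 20.5 and 19.8 in si-EIF5A2 (-1.32 ± 0.12 SE, adjusted p = 1.08e-04), the most negative value of the 72 members. DNAJC10 (chr2:182716041-182794464, plus strand), ERdj5, a disulfide reductase of the endoplasmic reticulum, read 66.6, 72.8 and 74 CPM in NC and 31.4, 31.7 and 31.8 in si-EIF5A2 (-1.17 ± 0.08 SE, adjusted p = 2.94e-05). DNAJC24 (DPH4), needed to make diphthamide on elongation factor 2, read 15.1, 19.3 and 13.3 CPM in NC and 8.43, 11.1 and 9.26 in si-EIF5A2 (-0.73 ± 0.18 SE, adjusted p = 0.0131). Without NC replicate 2 the DNAJC24 change was -0.57, inside the fold limit, and the adjusted p over all alternatives ran from 0.00191 to 0.0465. The 3 that were higher were all low: DNAJC6 (auxilin, which uncoats clathrin vesicles) at 2.56 to 3.04 CPM in NC and 6.36 to 7.17 in si-EIF5A2, DNAJC25 at 6.08 to 7.19 and 10.6 to 11.1 CPM, and DNAJC22 at 4.14 to 5.66 and 6.61 to 7.92 CPM. DNAJC25 shares 358 exon bases with the readthrough DNAJC25-GNG10 on the same strand, so its counts are less certain. DNAJC22 lost its call when NC replicate 1, NC replicate 2, si-EIF5A2 replicate 2 or si-EIF5A2 replicate 3 was left out. DNAJC8, a splicing-associated member, was not called and was uneven in both groups, at 141, 156 and 78.7 CPM in NC and 69.6, 152 and 142 in si-EIF5A2.

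By compartment, the 8 members of the endoplasmic reticulum gave 3 higher (HSPA13, DNAJB11 and DNAJC25) and 1 lower (DNAJC10). The share called was 50%, beside 24.6% of all genes tested, and their median log2 fold change was 0.39. The 8 tested mitochondrial members had a median of -0.08. No test between compartments was made.

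**Figure D3:**
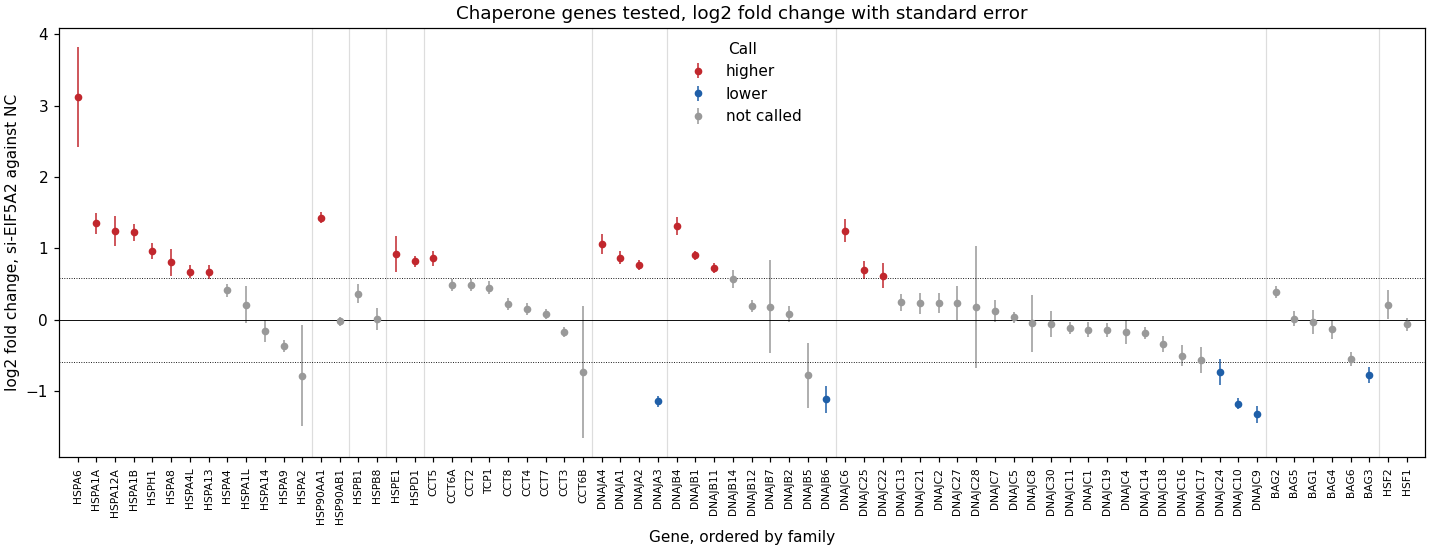
Log2 fold change of si-EIF5A2 against NC for the 72 tested members, ordered by family, with bars of 1 standard error and dotted lines at the fold limit of 1.5. The HSP70 genes lie mostly above 0, with HSPA6 at 3.12, whereas DNAJC genes lie on both sides, down to -1.32 for DNAJC9.

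None of the 6 BAG genes was higher and BAG3 was lower (16.7% called, beside 24.6% of all genes tested). BAG3 (chr10:119651370-119677819, plus strand), an exchange factor of HSP70 that directs clients to autophagy with HSPB8 and is itself known to be heat-inducible, read 166, 154 and 130 CPM in NC and 96.1, 81.8 and 86.0 in si-EIF5A2. Its log2 fold change was -0.77 ± 0.11 SE (adjusted p = 0.00102), and -0.87 to -0.69 over all alternatives. It was the only one of the 14 heat-inducible members that was lower. BAG6, which guards hydrophobic and tail-anchored proteins, was lower in every si-EIF5A2 library but within the fold limit (-0.55, adjusted p = 0.00354), and BAG2, an inhibitor of the ubiquitin ligase CHIP, was higher in every one and within the limit (0.39, adjusted p = 0.00661). BAG1, BAG4 and BAG5 overlapped between the groups.

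Of the small heat shock proteins, HSPB1 and HSPB8 had enough counts to be tested and neither was called. HSPB1 (HSP27) read 177, 133 and 122 CPM in NC and 180, 190 and 190 in si-EIF5A2, a log2 fold change of 0.37 ± 0.14 SE (adjusted p = 0.0674). NC replicate 1 lay close to the si-EIF5A2 libraries. Without it the change was 0.54 (adjusted p = 0.00265), and over all alternatives the adjusted p ran from 0.00265 to 0.191. HSPB8, the partner of BAG3, averaged 5.15 CPM in NC and 5.19 in si-EIF5A2.

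The heat shock factors did not differ beyond their spread. HSF1 read 154, 145 and 139 CPM in NC and 128, 158 and 134 in si-EIF5A2 (log2 fold change -0.06 ± 0.10 SE, adjusted p = 0.656). HSF2 read 4.75, 5.97 and 7.91 CPM in NC and 7.96, 6.99 and 6.61 in si-EIF5A2 (0.21 ± 0.21 SE, adjusted p = 0.475). HSF1 is known to be controlled mainly by release from chaperones, trimer formation and phosphorylation, which RNA levels do not measure.

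The 13 members not tested were CCT8L2, DNAJB8, DNAJB13, DNAJC5B, DNAJC5G, DNAJC12, DNAJC15, HSPA12B, HSPB2, HSPB3, HSPB6, HSPB7 and HSPB9. Of these, 9 were at 0 counts in every library, and the other 4 held at most 16 counts in any library.

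Co-chaperones that the rule did not take were also examined, as a list of 23 genes, all tested. Of these, 10 were called higher and 1 lower (47.8% called, beside 24.6% of all genes tested). Their median log2 fold change was 0.13. AHSA1, which stimulates the ATPase of HSP90, went from 115 to 216 CPM (0.90), CDC37, which loads kinases, from 192 to 310 CPM (0.69), and the immunophilin FKBP4 from 204 to 337 CPM (0.72). PPID, a cyclophilin of the same complexes (30.9 to 54.8 CPM), UNC45A, a myosin and HSP90 co-chaperone (44.8 to 87.8 CPM), and CHORDC1 (28.4 to 53.2 CPM) were higher as well. STUB1, the ubiquitin ligase CHIP (43.8 to 68.6 CPM), NUDC (259 to 397 CPM) and GAK, the widely expressed auxilin (39.8 to 61.0 CPM), were called but lost their call without NC replicate 3, when 7 of the 23 were called. FKBP5, a target of steroid receptors that inhibits their HSP90 complex, went from 6.39 to 2.98 CPM (-1.10) and was the only one lower. STIP1 (HOP), which joins HSP70 to HSP90, was not called, at 395 and 379 CPM. PTGES3 (p23), which stabilises closed HSP90, was not called, at 333 and 219 CPM (adjusted p = 0.182). PPP5C, a phosphatase that binds HSP90, was lower in every si-EIF5A2 library but within the fold limit, at 81.6 and 59.9 CPM (-0.45, adjusted p = 0.0098). CDC37L1, SUGT1 and TTC4, which also bind HSP90, were not called either.

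Prefoldin, which hands actin and tubulin to the CCT ring, was not called in any of its 6 subunit genes listed. Of the 4 other helpers of the ring, PDCL3 (7.89 to 17.2 CPM), TXNDC9 (45.4 to 78.5 CPM) and PDCD5 (62.8 to 97.4 CPM) were higher and PDCL was not called. In all, 3 of the 10 genes of this list were called (30%), near the 24.6% of all genes tested, so the count says nothing particular about the list.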

How the data were processed

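RNA-seq was done on 3 NC and 3 si-EIF5A2 libraries of SKOV3 cells. Groups and replicate numbers came from the sample labels, and the 6 columns were matched to libraries by name, with 0 left over. Transcript levels were estimated by the authors using StringTie and ballgown. The deposited values are estimated counts for each gene, without normalization. The submitters' processing notes name Bowtie 0.12.2 and the mouse builds mm8 and mm9, although the table holds human Ensembl identifiers, and the aligner and build behind the table are otherwise not given in the sources used here. The test had been planned for counts, and since the estimated counts were already whole, rounding changed nothing. Of 58825 identifiers, 58472 had a symbol. Positions and exon lengths came from GENCODE release 29 (GRCh38).

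Genes were filtered with filterByExpr, scaled by TMM and tested with edgeR 4.0.16 (quasi-likelihood, robust) in R 4.3.3, on the whole table of 16208 genes. A call needed an adjusted p below 0.05 and a fold change above 1.5. The SE was the log2 fold change divided by the root of F. CPM used TMM library sizes (factors 0.985 to 1.01). CPM per kb used merged exon length, not the transcript present. The steps were tested on simulated counts. A total of 17 other settings were tried, DESeq2 1.42.0 among them. Values in every library are given for called members of at least 10 CPM on average and for 15 members named whatever their result. Some genes of the lists are not reported here by name. Members and lists were chosen with earlier results of these data known. The floors cover counting error only, whereas the SE and SD include the spread between libraries. The sequences are from RefSeq, with 3 fragments taken as the limit that a count of 0 allows.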

Additional observations from a re-analysis of the deposited data

How the results depend on the processing

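Of the 27 calls, 22 were kept in all 16 settings that used the same kind of threshold or none on the fold, and 5 (HSPA6, HSPA8, HSPE1, DNAJC22 and DNAJC24) were lost in at least 1 of them. No member was called in the opposite direction in any setting. DESeq2, other scalings, summed symbols and counts divided by their step kept all 27. The published methods used a looser p and a wider fold (p below 0.05 without adjustment, fold above 2 or below 0.5). There, 2370 of the 16208 genes tested, 12 of the 72 members tested (8 higher and 4 lower) and 1 co-chaperone were called. The members' share was thus closer to that of all genes than at the main threshold (37.5% against 24.6%). With no limit on the fold, 5974 genes and 38 members (27 higher and 11 lower) were called. With 1 library left out, 3638 to 3907 genes, 24 to 29 members (19 to 21 higher and 5 to 9 lower) and 7 to 11 co-chaperones were called, the members' median was 0.12 to 0.26, and EIF5A2 was -3.10 to -2.82. HSP90AB1 ran from -0.065 (without NC replicate 1) to 0.0025, changing sign only without NC replicate 3 (adjusted p = 0.984, and 0.516 to 0.984 over all alternatives). The replicate numbers did not pair the libraries (correlation of deviations -0.069, 0.011 and 0.003), and with the replicate block 27 members were called, the same genes. Estimated counts, without the fragments behind them, limit what can be said of members under 1 CPM.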

Other observations

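HSF4, a heat shock factor outside the members, was called higher, from 1.07 to 2.37 CPM on average (log2 fold change 1.15). It was examined in a list of 5 HSF relatives and alpha-crystallins, of which 2 had enough counts to be tested. The other, HSBP1, which encodes a binding protein of HSF1, read 87.6 and 103 CPM and was not called (0.24, adjusted p = 0.0702).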
